A study of Saccharomyces cerevisiae with 6 samples.

Results

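The 33 genes described here carry Saccharomyces cerevisiae, budding yeast, from sulfate in the medium to methionine, cysteine and S-adenosylmethionine, and include the factors that control the route. They were chosen by gene name, with earlier results of these data known, and all 33 were found among the 5449 genes tested, each with 1 probe set. Their messenger RNA was measured on 6 Affymetrix arrays, 3 of a wild type strain and 3 of a strain in which VPS4 was knocked out, called the deletion here. Vps4 is an AAA ATPase that disassembles ESCRT-III polymers on endosomes, and without it cells cannot complete the multivesicular bodies that carry cargo from the cell surface to the vacuole. The series title ties the ESCRT mutants to recycling of amino acids through that route. Both groups were in mid-log growth at 26 °C in YNB synthetic medium with the amino acids that the strain needs. The labels name neither the strain background nor its marker alleles, nor which amino acids were added, so the methionine supply of these cultures is not known here. The wild type arrays are numbered 4, 6 and 3 and the deletion arrays 4, 5 and 6, and nothing says that they came from separate cultures. The p-values then cover no more than the spread among these arrays, part or all of which may be technical.

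Yeast takes up sulfate through 2 permeases, activates it with ATP, and reduces it through sulfite to sulfide. Sulfide is joined to O-acetylhomoserine to give homocysteine, which is methylated to methionine or passed through cystathionine to cysteine and glutathione. Methionine is also turned into S-adenosylmethionine, the methyl donor of the cell, whose spent form is returned to homocysteine. The activator Met4 drives most of these genes together with the DNA-binding proteins Cbf1, Met31 and Met32 and the cofactor Met28, and the ubiquitin ligase subunit Met30 holds Met4 back when sulfur amino acids are plentiful.

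All levels are log2 expression values, and every difference is VPS4 deletion minus wild type on that scale with its moderated standard error (SE). VPS4 stood between 11.39 and 11.48 on the wild type arrays and between 1.29 and 1.75 on the deletion arrays, where it was not above background. Background was set on each array at percentile 95 of the 1747 probe sets of another yeast, and lay between 1.82 and 1.92. All 33 sulfur genes were above it on every array. Wild type replicate 3 stood apart from the other wild type arrays: Pearson's r across all tested probe sets, which are not independent, was 0.9991 between replicates 4 and 6 but 0.9926 between replicate 3 and either of them. Results are therefore given with and without it. RNA came from whole cultures, so less of a transcript in every cell and fewer cells with that transcript cannot be told apart.

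A sulfate permease gene and a pair of genes needed for sulfite reduction were slightly lower without VPS4, and the other 30 members did not pass with all arrays in the fit. SUL1, MET8 and MET10 fell, by 0.27, 0.21 and 0.19, and 0 of the 33 rose (limma, Benjamini-Hochberg adjusted p under 0.05 over all 5498 tested probe sets). The 3 genes are 9.09% of the members, against 1.46% of all tested probe sets called lower, while 2.82% of all were called higher. No member differed by as much as 2-fold in either direction. The difference was below 0.1 in size for 17 members, from 0.1 to 0.3 for 11, and above 0.3 for 5. The median difference was −0.05 over the members and −0.00 over all tested probe sets, and 23 of the 33 differences were negative against 51.1% of all tested.

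**Figure D1:**
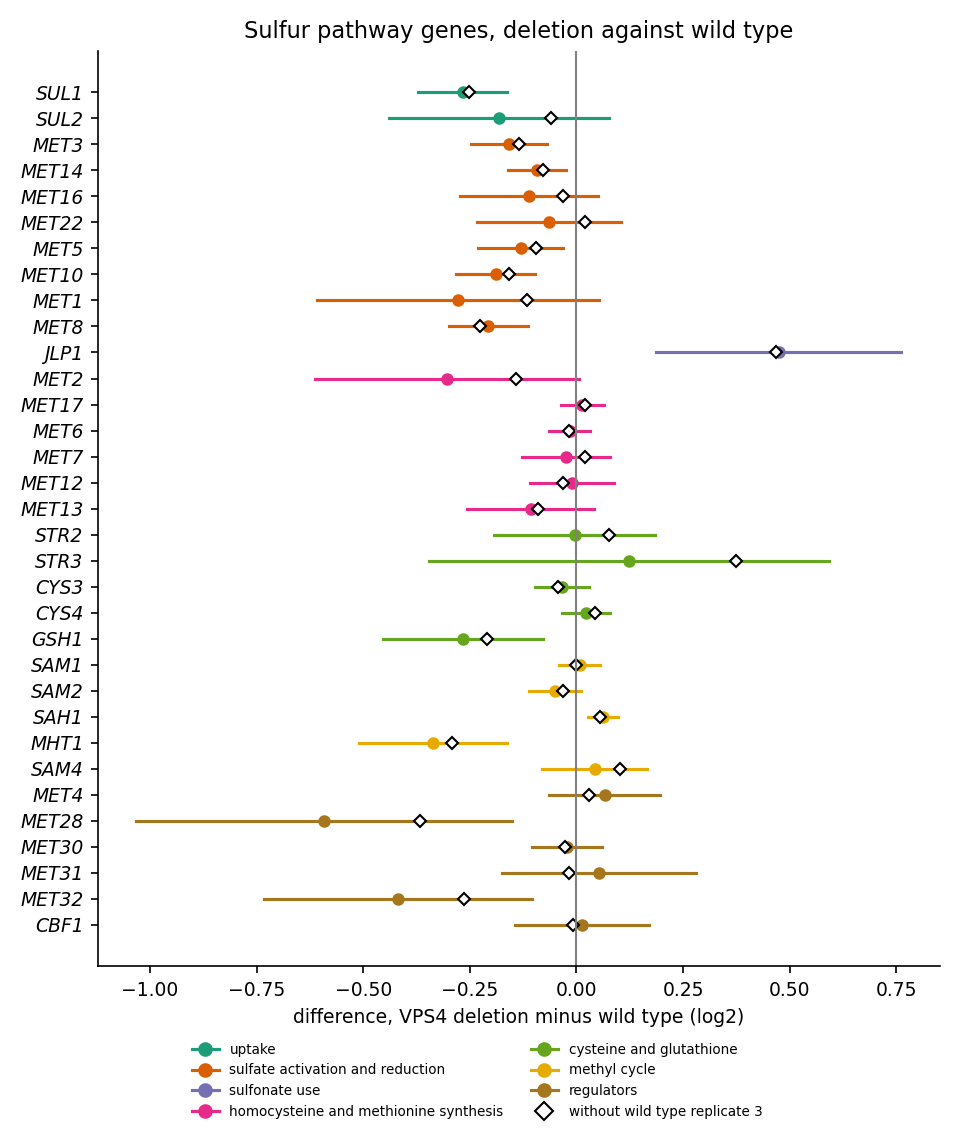
Difference in log2 expression, VPS4 deletion minus wild type, for the 33 genes grouped by step. Filled circles with bars give the fit of all 6 arrays and its 95% confidence interval, and open diamonds give the fit without wild type replicate 3. All 8 genes of sulfate activation and reduction lie left of 0 with all arrays, and MET22 crosses to the right without replicate 3.

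These calls rested on the arrays used. Without wild type replicate 3, 9 members were lower and 4 were higher, 27.3% and 12.1% of the members, against 10.1% and 11.9% of all tested probe sets. The 9 were SUL1, MET3, MET10, MET8, MET2, GSH1, MHT1, MET28 and MET32, and the 4 were JLP1, STR3, SAH1 and SAM4. The count of lower members was 1, MHT1, without wild type replicate 4, where 0.673% of all tested probe sets were lower. It was 0 when wild type replicate 6 (0.655% of all) or a deletion array was left out (0.255% for replicate 4, 0.0909% for replicate 5 and 0.182% for replicate 6). SUL1, MET8 and MET10 each passed in 1 of the 6 fits that left out an array, the fit without wild type replicate 3. The wild type and deletion arrays did not overlap for 12 members that were lower and 2 that were higher, against 11.8% and 13% of all tested probe sets. Without wild type replicate 3 the counts were 12 and 6, against 25.7% and 24.9%.

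Sulfate enters through Sul1 and Sul2, both high-affinity permeases of the plasma membrane. SUL1 (YBR294W) measured 11.05, 11.11 and 11.13 on wild type replicates 4, 6 and 3, and 10.85, 10.89 and 10.75 on deletion replicates 4, 5 and 6. Every deletion array lay below every wild type array. The gene fell by 0.27 ± 0.04 (SE, n = 3 per group; limma adjusted p = 0.0235), which is 1.20-fold, and by 0.25 ± 0.04 without wild type replicate 3 (limma adjusted p = 0.00196). With each of the other arrays left out in turn its adjusted p rose to as much as 0.0997. SUL2 (YLR092W) measured 10.20, 10.22 and 10.58 in wild type and 10.09, 10.27 and 10.10 in the deletion. Deletion replicate 5 lay above wild type replicates 4 and 6, and the difference of −0.18 ± 0.11 did not pass (limma adjusted p = 0.456).

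Inside the cell, sulfate is activated by ATP sulfurylase (MET3) and adenylylsulfate kinase (MET14), and the product is reduced to sulfite by Met16. Met22 removes the 3′-phosphoadenosine 5′-phosphate that this reduction leaves behind. MET3 (YJR010W) measured 12.27, 12.34 and 12.37 on wild type replicates 4, 6 and 3 and 12.19, 12.20 and 12.11 on deletion replicates 4, 5 and 6. The groups did not overlap, though the nearest arrays were only hundredths apart. Its difference of −0.16 ± 0.04 (SE) did not pass (limma adjusted p = 0.0696), and passed without wild type replicate 3 at −0.14 ± 0.03 (limma adjusted p = 0.0156). MET14 (YKL001C) differed by −0.09 ± 0.03 with no overlap of the groups and did not pass either way. MET16 (YPR167C) and MET22 (YOL064C) differed by −0.11 ± 0.07 and −0.06 ± 0.07. In both of them replicate 3 was the highest array, and without it the differences were −0.03 and 0.02.

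Sulfite is reduced to sulfide by sulfite reductase, whose subunits are encoded by MET10 and MET5, with a siroheme group made by Met1 and Met8. MET10 (YFR030W) measured 11.72, 11.77 and 11.84 in wild type replicates 4, 6 and 3, and 11.63, 11.59 and 11.54 in deletion replicates 4, 5 and 6. It fell by 0.19 ± 0.04 (SE; limma adjusted p = 0.0480), just inside the threshold, and by 0.16 ± 0.03 without wild type replicate 3 (limma adjusted p = 0.00499). MET5 (YJR137C), the other subunit, ranged from 12.12 to 12.26 in wild type and from 12.00 to 12.10 in the deletion. The groups did not overlap for MET5 either, but its difference of −0.13 ± 0.04 did not pass (limma adjusted p = 0.167, and 0.0539 without replicate 3).

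MET8 (YBR213W), which encodes the dehydrogenase and ferrochelatase that finishes siroheme, measured 9.85, 9.86 and 9.80 in wild type replicates 4, 6 and 3. On deletion replicates 4, 5 and 6 it measured 9.67, 9.63 and 9.59. All deletion arrays were lower, and here wild type replicate 3 was the lowest of its group and not the highest. The gene fell by 0.21 ± 0.04 (SE; limma adjusted p = 0.0365), or 0.23 ± 0.04 without that array (limma adjusted p = 0.00165). MET1 (YKR069W), the methyltransferase that acts before Met8, measured 10.24, 10.20 and 10.71 in wild type and 9.97, 10.20 and 10.15 in the deletion. The groups barely failed to meet, and replicate 3 was higher than the mean of wild type replicates 4 and 6 by 0.48. Its difference of −0.28 ± 0.14 did not pass (limma adjusted p = 0.369) and shrank to −0.12 ± 0.06 without that array.

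Taken as a group, the 8 genes of activation and reduction had a median difference of −0.14, with 2 lower, 0 higher and 6 that did not pass. Over all tested probe sets, 1.46% were lower and 2.82% higher. Wild type replicate 3 was above both other wild type arrays for 7 of the 8, against 43.1% of all tested probe sets. In those 7 it made the difference more negative. All 8 differences were negative, against 51.1% of all tested probe sets, and all 8 stayed negative after quantile normalization of the tested probe sets. Median centring lowered every difference by the same amount, so it could not have turned any of them positive. With array weights, with the title number as a block, or without wild type replicate 3, 7 of 8 were negative. The block fit is no separate check of that array. In it, wild type replicate 3 and deletion replicate 5 were alone in their blocks and added nothing to the differences. The median without wild type replicate 3 was −0.11, with 3 members lower, 37.5% of the 8 against 10.1% of all tested probe sets.

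JLP1 (YLL057C), which encodes a sulfonate dioxygenase that frees sulfite from organic sulfonates, was the dimmest member and the one with the largest positive difference. It measured 2.62, 2.65 and 2.62 in wild type and 3.11, 3.31 and 2.88 in deletion replicates 4, 5 and 6. The deletion arrays were all higher and spread over 0.21 (SD), whereas the wild type arrays spread over 0.02. The difference of 0.47 ± 0.12 (SE) did not pass (limma adjusted p = 0.0886), and did pass without wild type replicate 3 (limma adjusted p = 0.0376). Without that array the difference was 0.47 ± 0.14, no larger and with a wider SE. That fit called 11.9% of all tested probe sets higher, against 2.82% with all arrays. GCRMA, the method behind these values, draws dim probe sets together, which narrows both their spread and their differences.

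**Figure D2:**
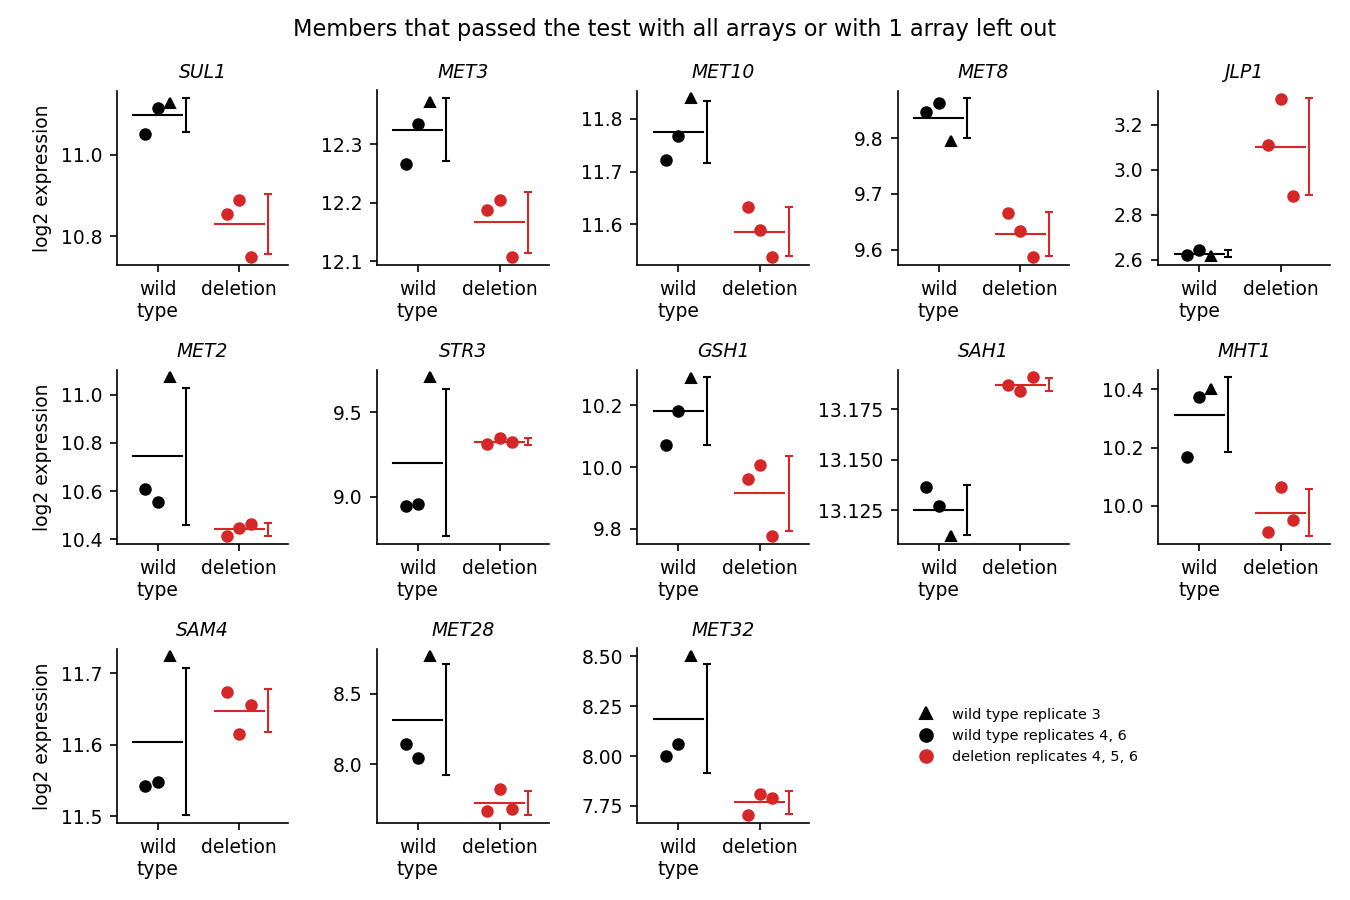
Log2 expression on each array for the 13 genes that passed the test with all arrays or with 1 array left out. Points are arrays, with a triangle for wild type replicate 3, short lines are group means, and bars are SD (n = 3); each panel has its own axis, which does not start at 0. The groups are apart with or without the triangle in every panel except STR3 and SAM4, where the triangle lies on the far side of the deletion arrays.

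In the synthesis of homocysteine and methionine, 0 of 6 genes passed, and the main enzymes of the step were nearly level between genotypes. MET17 (YLR303W), which joins sulfide to O-acetylhomoserine, averaged 13.10 ± 0.03 in wild type cells and 13.12 ± 0.02 in the deletion (SD, n = 3). MET6 (YER091C), the methionine synthase, averaged 13.11 ± 0.01 and 13.10 ± 0.03. The 95% confidence intervals of their differences ran from −0.04 to 0.06 and from −0.07 to 0.03. Both lay close to the brightest probe sets of the arrays, at 13.55 to 13.61, and whether that limited their differences was not tested.

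MET2 (YNL277W), which makes the O-acetylhomoserine that Met17 uses, did not pass with all arrays. It measured 10.61, 10.55 and 11.07 in wild type replicates 4, 6 and 3 and 10.41, 10.45 and 10.46 in deletion replicates 4, 5 and 6. Replicate 3 exceeded the mean of replicates 4 and 6 by 0.49, and all wild type arrays were above the deletion. The difference was −0.30 ± 0.13 (SE; limma adjusted p = 0.297), and without that array the gene was lower by a smaller but tighter −0.14 ± 0.03 (limma adjusted p = 0.00878). The folate genes of the step were MET7, a folylpolyglutamate synthase, and MET12 and MET13, methylenetetrahydrofolate reductases. They differed by −0.02 ± 0.04, −0.01 ± 0.04 and −0.11 ± 0.06, and 0 of them passed in any fit that left out 1 array.

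Among the 5 genes of cysteine and glutathione synthesis, 0 passed with all arrays. GSH1 (YJL101C), the γ-glutamylcysteine synthetase that begins glutathione synthesis, measured 10.07, 10.18 and 10.29 in wild type and 9.96, 10.01 and 9.78 in the deletion. The groups were apart. The difference of −0.27 ± 0.08 (SE) did not pass (limma adjusted p = 0.140), and −0.21 ± 0.06 passed without wild type replicate 3 (limma adjusted p = 0.0401). CYS3 and CYS4, which turn homocysteine into cysteine by way of cystathionine, differed by −0.03 ± 0.03 and 0.02 ± 0.02.

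STR3 (YGL184C), a cystathionine β-lyase that works in the other direction, depended most on the array numbered 3. It measured 8.95 and 8.96 on wild type replicates 4 and 6 but 9.70 on replicate 3, while deletion replicates 4, 5 and 6 gave 9.31, 9.35 and 9.32. The deletion lay between these wild type levels. With all arrays the difference was 0.12 ± 0.20 (SE; limma adjusted p = 0.814), and without replicate 3 it was 0.37 ± 0.04 (limma adjusted p = 0.000101). STR2 (YJR130C), the cystathionine γ-synthase that precedes it, differed by −0.00 ± 0.08.

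The methyl cycle held 5 members and 0 of them passed with all arrays. SAM1 and SAM2, which encode the S-adenosylmethionine synthetases, differed by 0.01 ± 0.02 and −0.05 ± 0.03 (SE), with 95% confidence intervals from −0.04 to 0.06 and from −0.11 to 0.01. SAH1 (YER043C), which splits the spent donor S-adenosylhomocysteine, measured 13.14, 13.13 and 13.11 in wild type and 13.19, 13.18 and 13.19 in the deletion. The groups were apart by a margin of hundredths, and the difference of 0.06 ± 0.01 did not pass (limma adjusted p = 0.0688) but passed without wild type replicate 3 (limma adjusted p = 0.0441). Without that array the difference was 0.055 ± 0.017, smaller and with a wider SE than the 0.062 ± 0.014 of all arrays. Like MET17 and MET6, SAH1 lay close to the brightest probe sets of the arrays, and whether that limited its difference was not tested.

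MHT1 and SAM4 encode homocysteine methyltransferases that draw their methyl group from S-methylmethionine and S-adenosylmethionine. MHT1 (YLL062C) measured 10.17, 10.37 and 10.40 in wild type and 9.91, 10.07 and 9.95 in the deletion. All deletion arrays lay below all wild type arrays. The difference between group means, −0.34 ± 0.07 (SE) or 1.26-fold, missed the threshold with all arrays (limma adjusted p = 0.0563). MHT1 passed without wild type replicate 3 at −0.29 ± 0.06 (limma adjusted p = 0.00825), and it was the 1 member that also passed without wild type replicate 4. SAM4 (YPL273W) measured 11.54, 11.55 and 11.72 in wild type and 11.67, 11.61 and 11.66 in the deletion. Replicate 3 was the highest array and replicates 4 and 6 the lowest, so the difference was 0.04 ± 0.05 with it and 0.10 ± 0.02 without it (limma adjusted p = 0.744 and 0.0145).

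The genes for the matching permeases were looked up after these values were seen. MMP1 (YLL061W), the S-methylmethionine permease gene next to MHT1, measured 10.42, 10.54 and 10.69 in wild type and 10.21, 10.32 and 10.23 in the deletion. Like MHT1 it was below every wild type array, with a difference of −0.30 ± 0.07 that did not pass with all arrays and passed without wild type replicate 3 (limma adjusted p = 0.0771 and 0.00636). SAM3, the S-adenosylmethionine permease gene next to SAM4, differed by −0.16 ± 0.12 and by −0.01 ± 0.03 without that array.

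Among the 6 regulators, 0 passed with all arrays, and MET28 and MET32 had the largest differences. MET4, MET30, MET31 and CBF1 differed by 0.07 ± 0.05, −0.02 ± 0.03, 0.05 ± 0.10 and 0.01 ± 0.07 (SE). MET28 (YIR017C), the bZIP cofactor of Met4, had the largest difference of all members with all arrays in the fit; without wild type replicate 3 those of JLP1 and STR3 were larger. It measured 8.14, 8.04 and 8.76 in wild type replicates 4, 6 and 3 and 7.67, 7.82 and 7.68 in deletion replicates 4, 5 and 6. Every deletion array was lower, but replicate 3 exceeded the mean of wild type replicates 4 and 6 by 0.67 and widened the group's SD to 0.39. The difference was −0.59 ± 0.18, or 1.51-fold lower, and did not pass (limma adjusted p = 0.157), and without replicate 3 it was −0.37 ± 0.07 and passed (limma adjusted p = 0.00473).

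MET32 (YDR253C), a zinc finger protein that brings Met4 to DNA, was likewise highest on wild type replicate 3. It measured 8.00, 8.06 and 8.50 in wild type and 7.70, 7.81 and 7.79 in the deletion. The difference of −0.42 ± 0.13 (SE) did not pass with all arrays, and −0.26 ± 0.06 passed without wild type replicate 3 (limma adjusted p = 0.159 and 0.0134). Its paralog MET31 (YPL038W) measured 7.11, 6.98 and 6.83 in wild type and 7.12, 6.90 and 7.07 in the deletion, so that the groups overlapped.

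**Figure D3:**
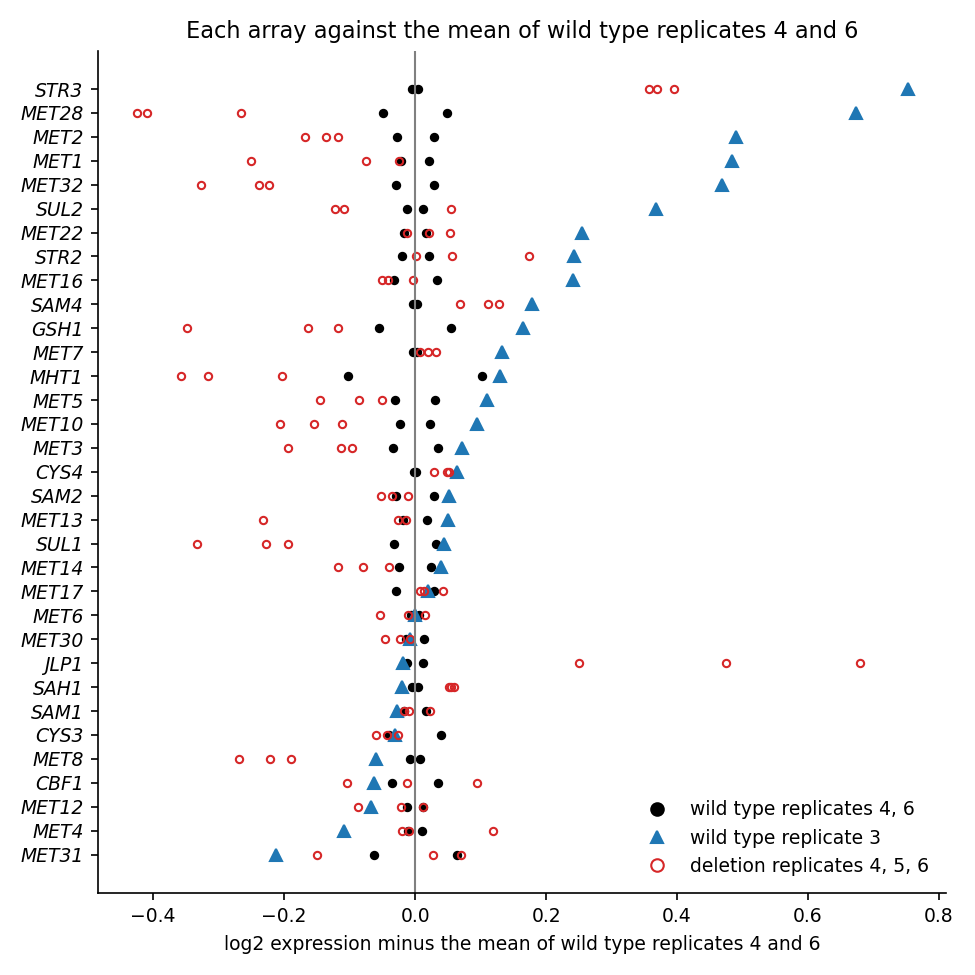
Log2 expression of the 33 genes on each array after subtracting the mean of wild type replicates 4 and 6, ordered by wild type replicate 3. Black points are wild type replicates 4 and 6, blue triangles wild type replicate 3, and open red circles the deletion arrays. In the upper rows replicate 3 lies 0.37 to 0.75 above the other wild type arrays, and the deletion arrays of MET28, MET2, MET32 and MET1 lie on the opposite side.

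Several members differed more among the wild type arrays than between genotypes. Wild type replicate 3 was above both other wild type arrays for 21 of the 33 members and below both for 8, against 43.1% and 41.4% of all tested probe sets. It stood more than 0.3 above their mean for 6 members, 18.2% of them, against 6.73% of all. The 6 were STR3 (0.75), MET28 (0.67), MET2 (0.49), MET1 (0.48), MET32 (0.47) and SUL2 (0.37). Replicates 4 and 6 differed from each other by at most 0.21 in any member. Being above the others in all 6, replicate 3 made the difference of each more negative when it was in the fit. SUL1 and MET8 were little affected, at 0.04 and −0.06.

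Within the deletion, replicate 6 was the lowest of its group for 17 of the 33 members and replicate 5 the highest for 17. The median SD of the members was 0.06 among wild type arrays and 0.05 among deletion arrays, against 0.08 and 0.05 over all tested probe sets.

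Members that share a reaction, a complex or a role were also compared within each array, as the level of one minus the level of the other, in 6 pairs. With 3 arrays against 3, the smallest two-sided p that an exact permutation test can give is 0.1, so 0 pairs could pass. MHT1 minus SAM4 changed from −1.29 ± 0.10 (SD, n = 3) in wild type to −1.67 ± 0.11 in the deletion, with no overlap of the groups (exact permutation p = 0.1, adjusted over 6 pairs 0.3). The difference between genotypes was −0.38 ± 0.09 (SE), and −0.39 without wild type replicate 3. For MET31 minus MET32 it was 0.47 ± 0.25 with overlapping groups, and 0.25 without that array (exact permutation p = 0.2). The subunit pair MET5 minus MET10 moved by 0.06 ± 0.02 with no overlap (exact permutation p = 0.1). The other pairs overlapped: SUL1 minus SUL2 moved by −0.09 ± 0.12, MET12 minus MET13 by 0.10 ± 0.06, and SAM1 minus SAM2 by 0.06 ± 0.04.

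**Figure D4:**
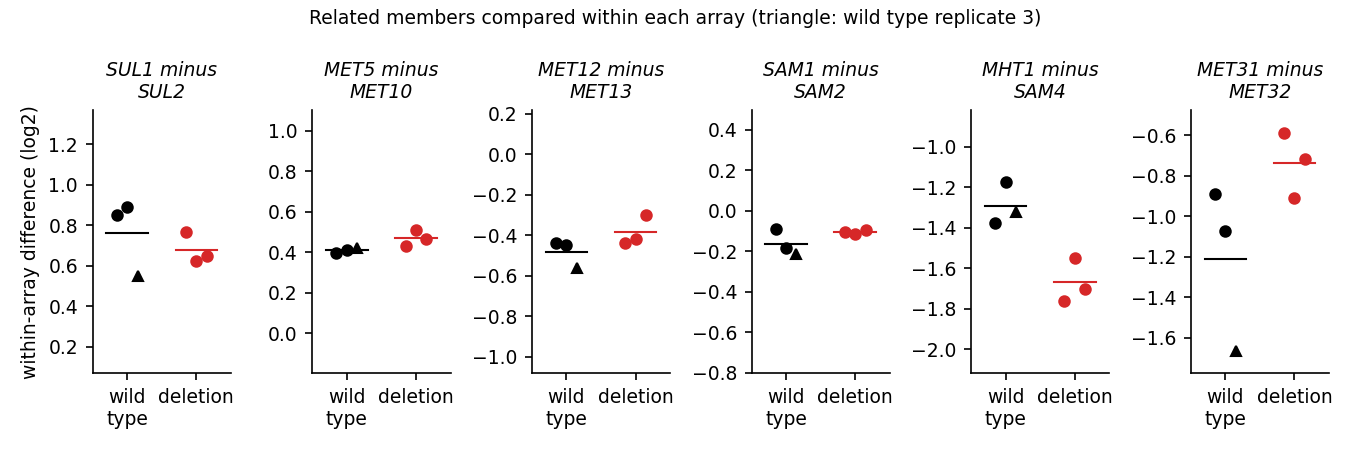
Within-array difference in log2 expression between related genes, in wild type (black) and deletion (red) arrays, with group means as lines and a triangle for wild type replicate 3. All panels span the same number of log2 units; MHT1 minus SAM4 lies near −1.29 in wild type and −1.67 in the deletion, while for SUL1 minus SUL2 and MET31 minus MET32 the triangle stands farthest from its group.

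Genes around the route were read from lists of 47, of which 46 were measured, and 1 rose, 1 fell and 44 did not pass. The same fit called 2.82% of all tested probe sets higher and 1.46% lower, so these counts are near the share over all. The median difference was −0.03. DUG2, which encodes a part of the enzyme complex that breaks down glutathione, was the 1 lower gene of 9 in glutathione synthesis and turnover. It measured 7.62, 7.74 and 7.77 in wild type and 7.34, 7.38 and 7.22 in the deletion, and fell by 0.40 ± 0.07 (SE; limma adjusted p = 0.0323). In the fits that left out 1 array it passed only without wild type replicate 3.

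PPM1, which encodes a methyltransferase that uses S-adenosylmethionine to methylate the catalytic subunit of protein phosphatase 2A, was the 1 higher gene of 4 in the list of methyl acceptors and adenosine. It measured 9.09, 9.14 and 9.23 in wild type and 9.63, 9.66 and 9.75 in the deletion. It rose by 0.53 ± 0.05 (SE), or 1.44-fold (limma adjusted p = 0.00582), and passed in each fit that left out 1 array except that without deletion replicate 5 (limma adjusted p = 0.0514). Among the 33 sulfur genes, 0 passed in more than 2 of those 6 fits.

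Of the 7 measured permeases of organic sulfur compounds, 3 genes of homoserine supply, 5 of folate one-carbon supply, 9 of methylthioadenosine salvage and polyamines, 2 of methionine sulfoxide reduction, 2 of sulfur scavenging and 5 that encode Met30's partners or Gcn4, 0 passed. BDS1 in the scavenging list was not above background on any array. Without wild type replicate 3, 8 of the 46 were higher and 7 lower, in a fit that called 11.9% and 10.1% of all tested probe sets. In the permease list the median excess of that array over replicates 4 and 6 was 0.46. MUP3, a methionine permease gene chosen after its values were seen, measured 7.97, 7.99 and 9.02 on wild type replicates 4, 6 and 3.

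JLP1 and MHT1 lie close together on chromosome XII, in a stretch that runs to AQY2, the aquaporin gene, and they differed in opposite directions. The stretch holds 9 measured genes in the gene order of assembly R64, and these were also read after the values were seen. From MHT1 onward the differences were −0.34 for MHT1, −0.30 for MMP1, 0.40 for GTT2, 0.47 for JLP1, 0.33 for YLL056C, −0.09 for YCT1 and −0.11 for YLL054C, of which 0 passed. YLL053C and AQY2 at the far end rose by 2.16 ± 0.25 and 2.58 ± 0.20 (SE; limma adjusted p = 0.00816 and 0.00269). AQY2 passed in each fit that left out 1 array and YLL053C in 3 of 6. The confidence intervals ran from −0.08 to 0.73 for YLL056C, from −0.26 to 0.07 for YCT1 and from −0.30 to 0.08 for YLL054C. All of these included 0, so the signs of these differences are not settled. Whether position links JLP1 to AQY2 was not tested.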

How the data were processed

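The authors deposited 1 table of log2 expression values, a row for each probe set. It comes from GCRMA (per the submitters' processing notes; version not given), which corrects background by probe sequence, quantile normalizes the arrays and summarises the probes of a set robustly. The values were used as they stand. Groups and replicate numbers come from the sample titles. Gene names come from the platform's annotation table, with symbols updated by gene ID from assembly R64, and the 5498 probe sets of Saccharomyces cerevisiae, of 10928, were tested. The 33 members, the lists of other genes and the pairs were chosen with earlier results of these data known.

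The test between genotypes was that of limma 3.58.1 (under R 4.3.3), using lmFit and trended eBayes, with genotype as the only covariate, two-sided. P-values were adjusted by Benjamini-Hochberg over all 5498 probe sets, with a threshold of 0.05. The fit was tested on simulated data. There it recovered 25% of changes of 0.2, 70.3% of those of 0.5 and 93.9% of those of 1, with 9 false calls. Changes as small as most of those seen here could therefore go uncalled. Errors on means are SD with n = 3, and the 3 arrays per group limit the precision. All members are named. Values on every array are given for members past the threshold with all arrays or with 1 left out, and other genes are named when past it, except where said.

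Alternatives covered the variance model (untrended, robust), scaling (median centring, quantile), the probe sets tested (without dim ones, or with all on the array), array weights, the title number as a block, thresholds of 0.01 and 0.1, and each array left out. The non-overlap counts and the pairs without wild type replicate 3 were added after seeing the data. Title numbers 4 and 6 occur in both groups, but nothing says that they mark pairs, so the number entered only as an alternative. The deviations of same-numbered arrays from their group means correlated at 0.021 and −0.0586. The wild type mean held wild type replicate 3, which stood apart and moved both other deviations, so these values cannot decide about pairs. No promoter, protein or probe sequence was used here, so a planned count of promoter motifs was not run. A planned comparison of several probe sets per gene did not apply.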

Additional observations from a re-analysis of the deposited data

How the results depend on the processing

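The 3 lower members and the 0 higher were also found with dim probe sets left out and with quantile normalization. Over all tested probe sets there were 80 lower and 155 higher. Untrended variances gave 2 lower and 0 higher members (78 and 122 probe sets), all probe sets tested together 1 and 0 (65 and 136), median centring 5 and 0 (103 and 138), and a robust prior 3 and 1 (83 and 162). Array weights gave 8 lower and 4 higher members (436 and 600 probe sets). With the title number as a replicate block, which leaves 1 residual degree of freedom, there were 10 lower and 2 higher members and 380 and 478 probe sets. The differences of that fit rest on replicates 4 and 6 of each group, as wild type replicate 3 and deletion replicate 5 were alone in their blocks. A threshold of 0.01 gave 0 lower members (18 and 49 probe sets), and one of 0.1 gave 5 lower and 2 higher (150 and 272). Over the fits that left out 1 array, lower members ranged from 0 to 9, higher members from 0 to 4, lower probe sets from 5 to 556 and higher probe sets from 17 to 656. The highest counts came without wild type replicate 3, and the cause was not tested. No member that passed in any of these fits changed direction between that fit and the fit of all arrays. JLP1, the only member of its step, moved from 0.47 to 0.40 with quantile normalization, 0.46 with median centring, 0.36 with the block, 0.37 without deletion replicate 5 and 0.58 without deletion replicate 6. A change of pseudocount does not arise for log2 values.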
